A study of Mus musculus with 15 samples.

Results

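Hairpin line KD6 was compared with hairpin line KD4, which are separate lines of the mouse mammary cancer cell line 6DT1 that each carried a short hairpin RNA against Smarcd1. The comparison used the 3 KD6 and 3 KD4 libraries, 6 of the 15 libraries of the series, and all 13669 genes of the table that holds them. The 3 libraries of a line with a scrambled hairpin (shScr) gave a reference level and entered the estimate of spread. An overexpression line and its empty-vector line made up the other 6 libraries and were not analysed here.

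All 9 libraries of the hairpin and scrambled lines came from untreated cells grown as a monolayer on plastic. Hairpins were delivered by lentivirus and the lines were selected with puromycin, in KD4, KD6 and shScr alike. Whether a line was a clone or a pool of transduced cells is not given in the sources used here. RNA was taken 24 h after seeding at 70% confluence, replicates came from different passages, and RNA integrity numbers were above 7. Each line was made once, so the replicates measure the spread between passages of that line. What the hairpin did and what the line already carried cannot be told apart.

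Smarcd1 encodes a subunit of the BAF (SWI/SNF) complexes, which use ATP to move nucleosomes and so open or close regulatory DNA. A short hairpin RNA is cut by Dicer to a small RNA that guides an Argonaute protein to messages with a matching sequence. Separate hairpins against the same gene share that gene as target but differ in the guide sequence that matches it. The comparison asks which messages differed between lines that carry the same label, knockdown of Smarcd1.

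Levels are in CPM, the reads of a gene scaled to a common total per library. The number of reads behind a value is unknown, so no counting interval or detection limit is given. The listed genes summed to between 894250 and 916093 CPM in the 9 libraries, and mitochondrially encoded messages took 4.47% to 5.64% of that sum. Of the 14 luminal mammary markers, 5 were listed (Krt8, Krt18, Krt19, Gata3, Esr1), summing to 830–1008 CPM in KD4 and 789–975 CPM in KD6. Of the other cell types, 0 of 8 basal and 0 of 7 endothelial markers were listed, and fibroblast, immune and adipocyte lists had 1 each. Their single members were Pdgfra at 4.42 to 7.75 CPM, Cd68 at 27.4 to 49.7 CPM and Pparg at 1.36 to 2.04 CPM over both hairpin lines. In culture RNA, fewer cells of a kind and less RNA per cell cannot be told apart.

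The targeted gene differed between the lines. Smarcd1 (ENSMUSG00000023018) stood at 9.07, 9.05 and 9.27 CPM in KD4 and at 13.2, 14.8 and 15.1 CPM in KD6. The KD6 libraries were all above the KD4 libraries and lay within or just under the range of shScr, which was 14.5, 16.5 and 15 CPM. KD6 was 1.57-fold higher than KD4, a log2 difference of 0.60 (SE 0.085, adjusted p = 0.00292, limma with Benjamini-Hochberg adjustment over all genes). The adjusted p stayed at or under 0.0196 when any 1 library was left out. Only 1 transcript of Smarcd1 (ENSMUST00000023759) was listed. It measured 8.32, 7.22 and 8.76 CPM in KD4 against 12.2, 14.3 and 13.1 CPM in KD6, and its adjusted p of 0.0629 over all transcripts did not pass. The lines are called KD4 and KD6 as labelled. No test of either line against shScr was made here.

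Across the genome, 671 of 13669 genes passed an adjusted p of 0.05, which is 4.91% of the genes tested. Of these, 344 (2.52%) were higher in KD6 and 327 (2.39%) were lower, the shares beside which the counts of each gene group stand. By the fitted difference in log2(CPM + 1), 279 of the 671 (41.6%) exceeded 1.5-fold, 139 of them higher and 140 lower. By the same measure 69 exceeded 2-fold. This measure understates the fold of low genes. Psmb8, for example, was 2.09-fold lower by mean CPM but had a fitted log2 difference of -0.988. All 671 separated the 3 KD6 from the 3 KD4 libraries, whereas 2949 genes (21.6%) of all genes tested did so. The median log2 difference over all genes was -0.003, and 2385 genes (17.4%) had an unadjusted p under 0.05, 1190 higher and 1195 lower. Single libraries moved the count. It was 298 without KD6 replicate 2, 396 without KD6 replicate 3 and 405 without KD4 replicate 2. On the first principal component of the 9 libraries, which held 31.7% of the variance, KD6 replicate 1 scored -5.80. The other KD6 libraries scored 3.41 and 5.76, the KD4 libraries -19.8 to -11.8 and shScr 11.9 to 17.0.

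**Figure D1:**
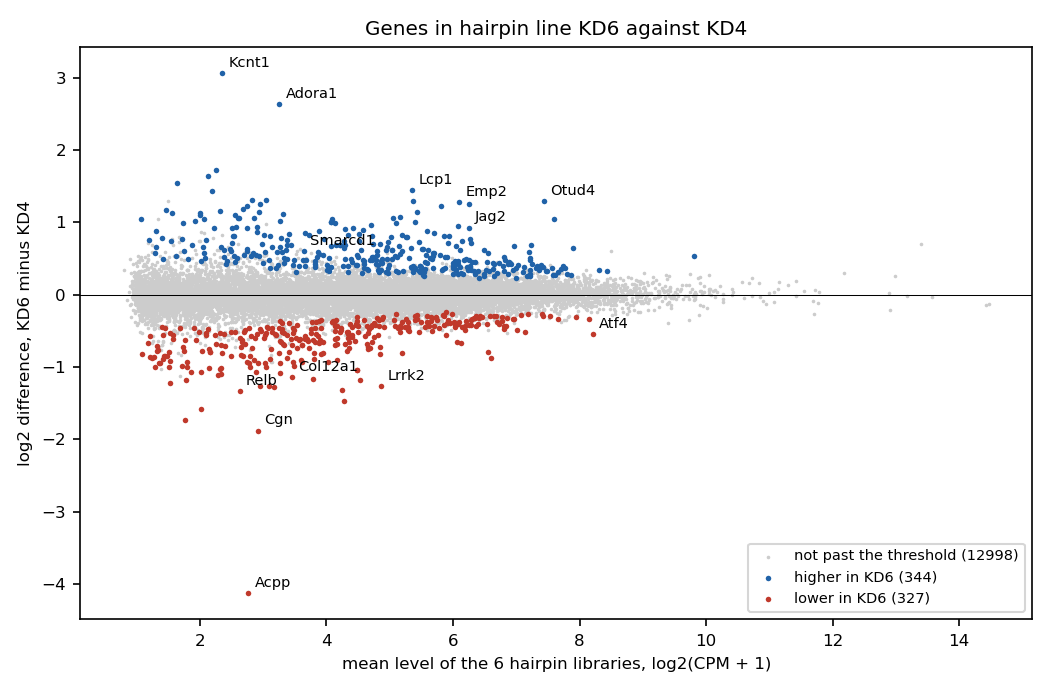
Each point is 1 of 13669 genes, with the mean level of the 6 hairpin libraries as log2(CPM + 1) on the x axis and the log2 difference, KD6 minus KD4, on the y axis. Blue points are the 344 genes higher in KD6, red points the 327 lower and grey points those past no threshold; Kcnt1, Adora1 and Acpp lie farthest from 0.

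The 12 largest named differences toward KD6 were headed by a channel and a receptor gene. Kcnt1, a sodium-activated potassium channel, stood at 0.0037, 1.33 and 1.38 CPM in KD4 and at 22.1, 10.8 and 11 CPM in KD6. Its log2 difference was 3.06 (SE 0.403, adjusted p = 0.00213), and the shScr libraries at 9.81 to 24.3 CPM covered the KD6 range. Adora1, the adenosine A1 receptor, showed another pattern. It measured 2.6, 2.48 and 3.49 CPM in KD4 and 14.1, 25.7 and 32.2 CPM in KD6, a log2 difference of 2.63 (SE 0.363, adjusted p = 0.00267). With shScr at 1.25 to 5.70 CPM, Adora1 was high only in the KD6 libraries among the 9.

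Otud4, a deubiquitinase, had the smallest p of the 12 largest higher genes. It measured 103, 110 and 116 CPM in KD4 and 264, 268 and 280 CPM in KD6, 2.46-fold higher (log2 difference 1.29, SE 0.0725, adjusted p = 3.56e-05). The shScr libraries were above both lines at 305 to 347 CPM. Plekha3, a lipid-binding Golgi protein, was 2.52-fold higher in KD6, at 57.0 to 72.8 CPM against 22.6 to 28.1 CPM in KD4 (adjusted p = 0.000288). Lcp1, the actin-bundling protein L-plastin, measured 17.1, 24.7 and 32.2 CPM in KD4 and 74.3, 61.9 and 64.3 CPM in KD6. That was 2.71-fold higher (adjusted p = 0.00205), with shScr at 43.0 to 57.0 CPM between both lines.

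Emp2, a tetraspan membrane protein, stood apart in KD6. Its levels were 36.4, 46.5 and 46.5 CPM in KD4, 106, 111 and 99.5 CPM in KD6 and 47.3 to 48.4 CPM in shScr. The KD6 level was 2.45-fold that of KD4 (log2 difference 1.28, SE 0.0934, adjusted p = 0.000215). Mmp3, the matrix protease stromelysin-1, was likewise low in KD4 (3.04 to 5.72 CPM) and shScr (3.58 to 4.82 CPM) and measured 10.9 to 13.1 CPM in KD6, 2.76-fold higher than KD4 (adjusted p = 0.00198). Sardh, a mitochondrial sarcosine dehydrogenase, and Lgals7, the epithelial lectin galectin-7, were 2.84-fold and 2.72-fold higher in KD6 (adjusted p = 0.00172 and 0.00276). Both also had shScr levels near KD4, at 4.36 to 4.99 and 3.10 to 4.14 CPM.

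Mgst1, a microsomal glutathione transferase, measured 1.22, 2.45 and 1.00 CPM in KD4 and 6.75, 7.15 and 6.23 CPM in KD6 (log2 difference 1.63, SE 0.178, adjusted p = 0.00085). Rerg, a Ras-like GTPase linked to oestrogen response, was 3.38-fold higher in KD6 (adjusted p = 0.00484). The remaining gene of the 12, the immediate early transcription factor Egr1, was less steady. It stood at 1.77, 1.26 and 1.89 CPM in KD4 and 4.86, 10.2 and 8.94 CPM in KD6, with an adjusted p of 0.013. That p became 0.0571 without KD4 replicate 2, 0.0601 without KD6 replicate 2 and 0.0531 without KD6 replicate 3. The other 11 passed under every setting that kept them. The setting with a minimum mean of 5 CPM left out Mgst1 and Rerg.

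**Figure D2:**
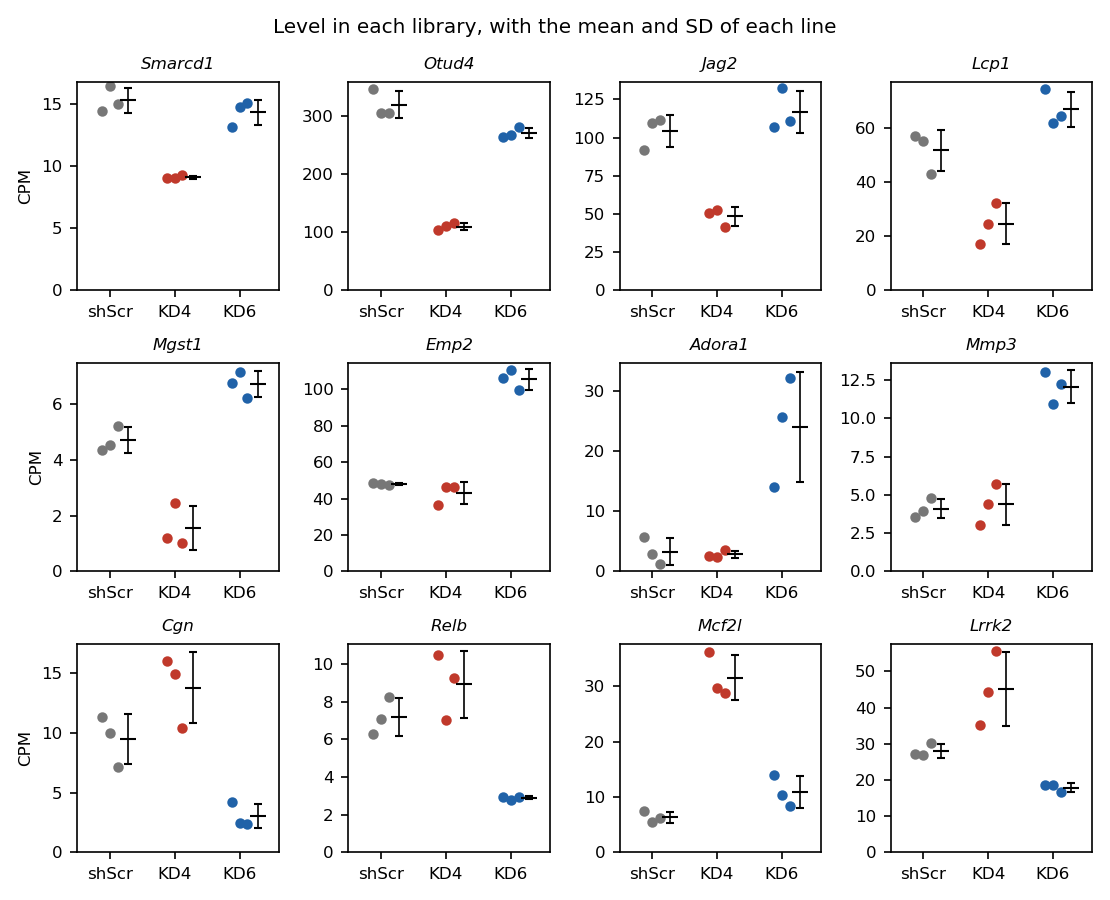
Level of 12 named genes in CPM (y axis, from 0) in each library of shScr, KD4 and KD6 (x axis); points are libraries and the black mark is the mean with its SD (n = 3). Smarcd1, Otud4 and Jag2 were low in KD4 alone, Emp2, Adora1 and Mmp3 were high in KD6 alone, and Mcf2l was highest in KD4.

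The 12 largest named differences toward KD4 included a junction gene and a secreted guidance cue. Cgn, cingulin of the tight junction, measured 16.0, 14.9 and 10.4 CPM in KD4 and 4.20, 2.49 and 2.40 CPM in KD6. It was 4.54-fold lower in KD6 (log2 difference -1.88, SE 0.211, adjusted p = 0.000874), and shScr lay between at 7.15 to 11.3 CPM. Ntn1, the secreted guidance cue netrin-1, measured 6.87, 5.58 and 5.55 CPM in KD4 and 1.65, 1.27 and 1.12 CPM in KD6. The shScr range of 1.20 to 2.03 CPM overlapped that of KD6, and Ntn1 was 4.46-fold lower in KD6 than in KD4 (adjusted p = 0.000339).

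Mcf2l, a guanine nucleotide exchange factor, measured 36.2, 29.7 and 28.8 CPM in KD4 and 14.1, 10.4 and 8.34 CPM in KD6. It was 2.88-fold lower in KD6 (adjusted p = 0.00097), with shScr lower still at 5.54 to 7.48 CPM. Inhbb, the beta-B subunit of activin and inhibin, was 2.73-fold lower in KD6 (adjusted p = 0.00251). Here KD6 stood apart, at 3.90 to 5.55 CPM against 10.5 to 15.2 CPM in KD4 and 14.4 to 21.2 CPM in shScr.

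Sorbs3 (vinexin, a focal adhesion adaptor) was 2.73-fold lower and Tspan15, a tetraspanin partner of the protease ADAM10, was 2.75-fold lower in KD6 (adjusted p = 0.00032 and 0.00085). Scube3, a secreted glycoprotein, was 2.44-fold lower (adjusted p = 0.0027). Separation of the KD6 from the KD4 libraries was part of the rule that named these genes. Angptl4, a secreted inhibitor of lipoprotein lipase, was 2.40-fold lower, at 10.7 to 18.4 CPM against 23.8 to 47.9 CPM. Its adjusted p of 0.0145 became 0.0591 without KD6 replicate 2.

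Acpp, the secreted and transmembrane prostatic acid phosphatase, had the largest fitted difference of all, but 1 library carried much of it. It measured 129, 9.54 and 15.8 CPM in KD4, 0.0332, 0.931 and 1.16 CPM in KD6 and 2.21 to 25.6 CPM in shScr. The log2 difference of -4.13 (SE 0.928, adjusted p = 0.0296) was -3.03 without KD4 replicate 1, with an adjusted p of 0.0588. Its adjusted p was 0.0901, 0.0823 and 0.0677 without KD6 replicates 1, 2 and 3. The other 3 of the 12 were Relb, Trp53i11 and Lrrk2, described with their groups.

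The NF-kB group held 5 genes lower in KD6 and 0 higher among its 20 measured members, against 2.39% lower among all genes. NF-kB factors are held inactive by inhibitor proteins such as those encoded by Nfkbia and Nfkbie, which the factors themselves induce, and Relb is a subunit of the non-canonical arm. Relb measured 10.5, 7.01 and 9.29 CPM in KD4 and 2.93, 2.81 and 2.96 CPM in KD6, 3.08-fold lower (log2 difference -1.33, SE 0.139, adjusted p = 0.000701). The shScr libraries at 6.27 to 8.27 CPM were near KD4. Nfkbie measured 5.77, 4.50 and 4.48 CPM in KD4 and 1.99, 1.95 and 1.48 CPM in KD6, 2.72-fold lower (adjusted p = 0.00914). No library of KD6 reached the lowest of KD4 for either gene, and all 671 passing genes separated the lines in this way.

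Nfkbia was 1.34-fold lower, at 55.4 to 60.0 CPM in KD6 against 69.5 to 85.1 CPM in KD4 (adjusted p = 0.015). The monocyte-attracting chemokine Ccl2 was 1.76-fold lower, at 63.6 to 84.2 CPM against 108 to 153 CPM (adjusted p = 0.0113). Without KD6 replicate 2 the adjusted p was 0.0641 for Nfkbia and 0.0545 for Ccl2, and for Nfkbia it was 0.0603 without KD6 replicate 3. The fifth was Ptgs2, the inducible cyclooxygenase, 1.39-fold lower (adjusted p = 0.0348) and named after its values were seen. The position of shScr differed between these genes. It was below both lines for Nfkbia (47.5 to 51.1 CPM) and above both for Ptgs2 (57.5 to 65.3 CPM). For Ccl2 it overlapped KD6 (72.0 to 88.4 CPM), and for Nfkbie it overlapped KD4 (2.31 to 4.68 CPM). The median log2 difference of the 20 members was -0.284, beside -0.003 for all genes. Under the other settings 2 to 5 members passed.

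Genes of MHC class I presentation encode the proteins that load peptides on class I molecules for display to T cells. Of 18 measured members, 4 were lower in KD6 and 0 higher, beside 2.39% and 2.52% of all genes, and 2 to 5 passed over the settings. The median log2 difference was -0.253, and 17 had a lower mean log2 level in KD6 (50.8% of all genes did). Psmb8, a catalytic subunit of the immunoproteasome, measured 13.6, 15.9 and 15.1 CPM in KD4 and 9.04, 6.77 and 5.51 CPM in KD6, 2.09-fold lower (adjusted p = 0.0043). The class I gene H2-Q4 was 1.61-fold lower, at 19.3 to 20.7 CPM against 27.9 to 36.0 CPM (adjusted p = 0.00292). H2-Q4 has near-identical relatives, so its reads may be shared with them. Both genes passed under every setting.

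The trimming peptidase Erap1 and the loading protein tapasin (Tapbp) were 1.26-fold and 1.36-fold lower (adjusted p = 0.0251 and 0.0308). Erap1 no longer passed when any of 4 libraries was left out (adjusted p up to 0.104, without KD6 replicate 2), nor did Tapbp for any of 5 (up to 0.11, without KD6 replicate 3).

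Of 32 interferon-stimulated genes measured, 8 passed and 7 of these were lower in KD6, beside 4.91% passing and 2.39% lower among all genes. The median log2 difference was -0.108 and ran from -0.172 to -0.033 when 1 library was left out. Irf1, a transcription factor of interferon responses, measured 34.4, 33.9 and 34.1 CPM in KD4 and 25.7, 25.1 and 23.4 CPM in KD6 (log2 difference -0.45, SE 0.0678, adjusted p = 0.00381). The RNA sensor Ifih1 (MDA5) was 1.45-fold lower, at 13.8 to 15.2 CPM against 20.2 to 22.2 CPM (adjusted p = 0.0058). Gbp2, an interferon-induced GTPase, was 1.46-fold lower (adjusted p = 0.0229). Gbp2 lost the threshold when any of 3 libraries was left out (adjusted p up to 0.103, without KD6 replicate 2), and 2 to 9 members passed over the settings.

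**Figure D3:**
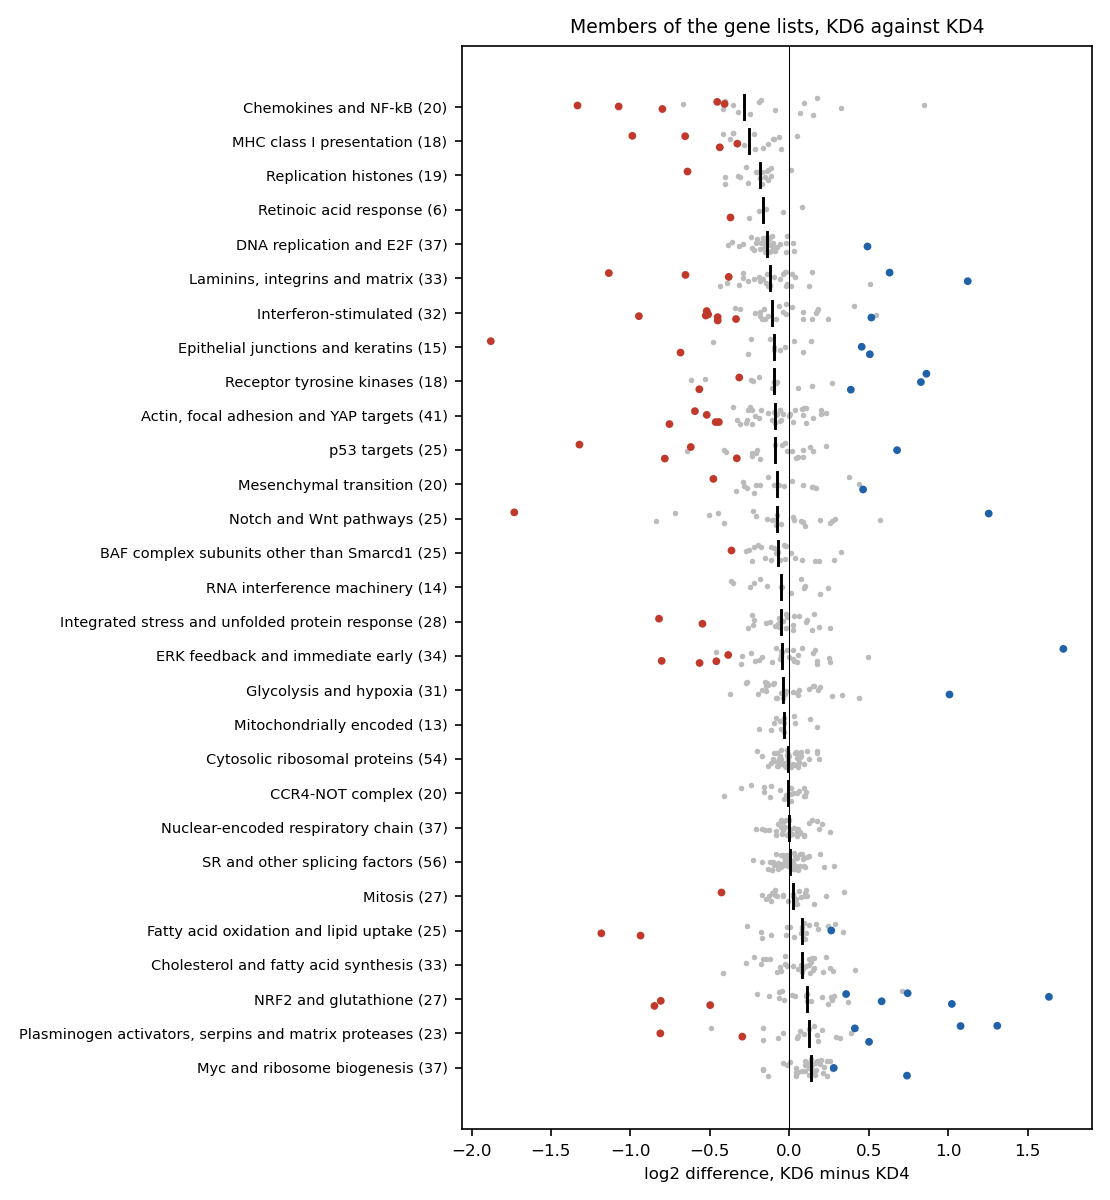
Log2 difference, KD6 minus KD4 (x axis), of every measured member of the gene lists (y axis, number measured in brackets, ordered by median). Black bars are medians, coloured points passed the threshold (blue higher, red lower in KD6) and grey points did not; the NF-kB list has the lowest median, -0.284, and the Myc list the highest, 0.137.

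The NRF2 and glutathione group had 5 members higher and 3 lower in KD6 of 27 measured, beside 2.52% higher and 2.39% lower among all genes. NRF2, encoded by Nfe2l2, switches on enzymes that conjugate or reduce reactive compounds. Nfe2l2 itself measured 72.7, 78.4 and 77.2 CPM in KD4 and 114, 117 and 112 CPM in KD6, 1.5-fold higher (log2 difference 0.58, SE 0.0641, adjusted p = 0.00085), with shScr at 105 to 117 CPM. Mgst1 and Ephx1, the microsomal epoxide hydrolase, were also higher. Ephx1 measured 52.9, 58.8 and 49.0 CPM in KD4 and 98.5, 95.3 and 78.2 CPM in KD6 (adjusted p = 0.00429).

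Srxn1, sulfiredoxin, was lower, at 31.1 to 34.2 CPM in KD6 against 43.3 to 49.2 CPM in KD4 (log2 difference -0.50, adjusted p = 0.00292). Members of the group that passed did not all go the same way. Of the members named after their values were seen, Nqo1 and Txnrd1 were 2.68-fold and 1.28-fold higher and Gstm7 and Gstm2 were 2.02-fold and 1.85-fold lower (adjusted p = 0.0155, 0.0353, 0.0155 and 0.0172). The Gstm genes are close relatives whose reads may be shared. The median over the group was 0.113, and 5 to 9 members passed over the settings.

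Targets of p53, the tumour suppressor that responds to DNA damage, gave 1 higher and 4 lower of 25, beside 2.52% and 2.39% of all genes, and 2 to 6 passed over the settings. Trp53i11 measured 27.8, 26.3 and 33.3 CPM in KD4 and 12.2, 11.7 and 9.36 CPM in KD6, 2.63-fold lower (log2 difference -1.32, SE 0.172, adjusted p = 0.00199). Trp53inp1 was higher, at 77.5 to 91.3 CPM in KD6 against 46.6 to 58.4 CPM in KD4 (adjusted p = 0.0027). Gadd45a and the kinase gene Plk2 were 1.60-fold and 1.26-fold lower (adjusted p = 0.0142 and 0.019). Gadd45a fell short without KD4 replicate 2 (0.0631) or KD6 replicate 2 (0.0623), and Plk2 with any of 3 libraries left out (up to 0.0783). The death receptor gene Fas, named after its values were seen, was 2.27-fold lower (adjusted p = 0.0389).

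Immediate early and ERK feedback genes, which respond within minutes to growth signals, gave Egr1 higher and 4 lower of 34. Among all genes 2.52% were higher and 2.39% lower. Klf4 measured 18.7, 16.0 and 17.8 CPM in KD4 and 9.52, 11.5 and 8.04 CPM in KD6, 1.81-fold lower (adjusted p = 0.00464). The MAP kinase phosphatase genes Dusp10 and Dusp1 were 1.51-fold and 1.32-fold lower (adjusted p = 0.0087 and 0.0117). Dusp1 gave 0.0548 without KD4 replicate 2 and 0.0541 without KD6 replicate 2. Fosl2, named after its values were seen, was 1.38-fold lower (adjusted p = 0.0315). The group's median was -0.047.

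Among Notch and Wnt genes, which carry signals between neighbouring cells, a ligand of each pathway passed. Jag2, a membrane-bound Notch ligand, measured 51.0, 52.9 and 41.4 CPM in KD4 and 107, 132 and 111 CPM in KD6, 2.41-fold higher (log2 difference 1.25, SE 0.115, adjusted p = 0.000339). The shScr libraries overlapped KD6 at 92.2 to 112 CPM. Wnt9a, a secreted Wnt ligand, measured 5.05, 5.05 and 5.40 CPM in KD4 and 0.941, 1.07 and 0.596 CPM in KD6 (log2 difference -1.73, SE 0.144, adjusted p = 0.000288), with shScr at 1.19 to 2.03 CPM. These were the only 2 of the 25 measured Notch and Wnt genes to pass, beside 4.91% of all genes.

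Of 18 receptor tyrosine kinase genes, 3 were higher and 2 lower in KD6, beside 2.52% and 2.39% of all genes. Mertk, a receptor for apoptotic cell clearance, measured 24.5, 28.4 and 26.7 CPM in KD4 and 48.5, 47.2 and 47.7 CPM in KD6, 1.80-fold higher (adjusted p = 0.00085). The ephrin receptor gene Ephb2 was 2.00-fold higher, at 8.14 to 9.73 CPM against 4.05 to 5.10 CPM (adjusted p = 0.00579). In both genes KD6 was above every KD4 and shScr library. Pdgfra was 1.58-fold lower and Epha4 1.33-fold higher (adjusted p = 0.017 and 0.032), but they no longer passed with any of 4 and of 7 libraries left out respectively (up to 0.0668 and 0.0985). Met, the hepatocyte growth factor receptor, named after its values were seen, was 1.25-fold lower (adjusted p = 0.0429).

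Secreted proteases and their inhibitors gave 4 higher and 2 lower of 23, beside 2.52% and 2.39% of all genes. Serpine2, an inhibitor of thrombin and plasminogen activators, measured 24.9, 23.7 and 22.2 CPM in KD4 and 47.3, 54.4 and 51.1 CPM in KD6, 2.16-fold higher (log2 difference 1.08, SE 0.0867, adjusted p = 0.000288). Adamts1, a protease that cuts proteoglycans, went the other way, at 24.7 to 28.1 CPM in KD6 against 43.5 to 50.9 CPM in KD4 (adjusted p = 0.000695). Timp2, a metalloproteinase inhibitor, was 1.33-fold higher (adjusted p = 0.018), up to 0.0875 when any of 4 libraries was left out. Mmp3 was described above, and Adam8 and Mmp14, named after their values were seen, were 1.44-fold higher and 1.23-fold lower (adjusted p = 0.0382 and 0.0253).

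Matrix and integrin genes gave 2 higher and 3 lower of 33, beside 2.52% and 2.39% of all genes. Col12a1, a fibril-associated collagen, measured 15, 18.3 and 12.9 CPM in KD4 and 6.04, 6.93 and 6.24 CPM in KD6, 2.40-fold lower (adjusted p = 0.00085). Thbs1, thrombospondin-1, was 1.58-fold lower, at 48.5 to 55.8 CPM against 79.1 to 86.6 CPM (adjusted p = 0.00085). Col6a1 and Ccn3 were low in both lines, at most 4.11 and 7.06 CPM, and higher in KD6 (adjusted p = 0.0304 and 0.0308). Each failed to pass with any of 5 libraries left out (up to 0.102 and 0.111). Itgb5, an integrin subunit gene named after its values were seen, was 1.31-fold lower (adjusted p = 0.0309).

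Genes of actin, focal adhesion and the YAP pathway, through which cells read stretch and contact, gave 5 lower and 0 higher of 41. Among all genes 2.39% were lower and 2.52% higher. Synpo, an actin-associated protein, measured 10.7, 11.1 and 9.30 CPM in KD4 and 6.32, 5.84 and 5.04 CPM in KD6 (log2 difference -0.75, SE 0.116, adjusted p = 0.00411). Its shScr level was lower than both, at 2.45 to 3.17 CPM. Tead4, a DNA-binding partner of YAP, and Ccn1, a YAP target, were 1.37-fold and 1.45-fold lower (adjusted p = 0.00914 and 0.0094). Amotl2 was 1.4-fold lower (adjusted p = 0.0378), up to 0.114 with any of 6 libraries left out. Add3, named after its values were seen, was 1.60-fold lower (adjusted p = 0.0416).

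Epithelial junction and keratin genes, 15 of 37 measured, gave 2 in each direction, beside 2.52% higher and 2.39% lower among all genes. Dsc2, a desmosomal cadherin, measured 22, 26.0 and 23.6 CPM in KD4 and 14.5, 14.6 and 14.2 CPM in KD6, 1.65-fold lower (adjusted p = 0.00126), and Cgn was lower as given above. Krt19 and plakoglobin (Jup) were 1.46-fold and 1.37-fold higher (adjusted p = 0.0136 and 0.0356). Krt19 gave 0.0623 without KD6 replicate 2, and Jup did not pass with any of 6 libraries left out (up to 0.134). The luminal list shared Krt19 and held 1 further passing gene, the oestrogen receptor Esr1. It was 1.84-fold higher at 3.77 to 5.04 CPM (adjusted p = 0.0182), up to 0.0827 with any of 3 libraries left out. The broad keratins Krt8 and Krt18 overlapped between the lines.

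Of 20 mesenchymal genes 2 passed, beside 4.91% of all genes. The TGF-beta receptor gene Tgfbr1 was 1.39-fold higher (adjusted p = 0.00951). The matrix crosslinking enzyme gene Loxl2 was 1.55-fold lower (adjusted p = 0.0475), which rose to as much as 0.164 with any of 7 libraries left out.

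Slc16a3, the lactate exporter MCT4, measured 10.7, 12.3 and 9.79 CPM in KD4 and 21.8, 21.9 and 25 CPM in KD6, 2.10-fold higher (log2 difference 1.01, SE 0.102, adjusted p = 0.000637). It was the only 1 of 31 glycolysis and hypoxia genes to pass, a share near that of all genes. The shScr libraries were higher than both, at 27.4 to 32.1 CPM. Of 25 genes of fatty acid oxidation and uptake 3 passed, beside 4.91% of all genes. The fatty acid carrier gene Fabp5 was 2.00-fold lower, at 6.06 to 9.19 CPM against 15.2 to 17.0 CPM (adjusted p = 0.00369). Angptl4, given above, was lower as well. None of 33 cholesterol and fatty acid synthesis genes, 37 respiratory chain genes and 13 mitochondrially encoded genes passed. At an unadjusted p under 0.05 there were 3, 3 and 0 of them, beside 17.4% of all genes. Acaca came closest, at 95.2, 103 and 94.5 CPM in KD4 and 114, 119 and 112 CPM in KD6 (adjusted p = 0.0553).

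Growth genes passed at a share near the 4.91% of all genes. Of 37 Myc and ribosome biogenesis genes, Mlx, a partner in the Myc network, was 1.69-fold higher (27.2 to 30.3 CPM against 14.1 to 20.6 CPM, adjusted p = 0.0043). Wdr12, a ribosome assembly factor, was 1.22-fold higher (adjusted p = 0.0313), up to 0.133 with any of 6 libraries left out. The group's median was 0.137, and 32 of 37 had a higher mean log2 level in KD6 (50.8% of all genes had a lower one). DNA replication genes had a median of -0.141, 34 of 37 with a lower mean log2 level in KD6 (50.8% of all genes). Their only passing member, the repressor gene E2f8, was 1.42-fold higher (adjusted p = 0.0297) and gave up to 0.127 with any of 4 libraries left out. Of 27 mitosis genes, cyclin B2 (Ccnb2) was 1.37-fold lower (adjusted p = 0.0381), up to 0.153 with any of 7 libraries left out.

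The machinery that Smarcd1 and the hairpins work through was examined member by member. Smarcd2 and Smarcd3, which can take the place of Smarcd1 in the complex, gave log2 differences of -0.08 and -0.24 (adjusted p = 0.665 and 0.576). Of 25 other BAF subunits, only Arid2 passed, a share near the 4.91% of all genes. It measured 130, 128 and 113 CPM in KD4 and 85.0, 104 and 98.2 CPM in KD6 (log2 difference -0.37, adjusted p = 0.0348). Its adjusted p was up to 0.129 with any of 6 libraries left out. Of the RNA-binding proteins that work with CCR4-NOT, Nanos1 measured 5.17, 4.63 and 5.72 CPM in KD4 and 4.04, 3.94 and 4.01 CPM in KD6 without passing (adjusted p = 0.13). None of 14 RNA interference genes, 56 splicing factors, 20 CCR4-NOT genes and 54 cytosolic ribosomal protein genes passed. At an unadjusted p under 0.05 there were 4, 2, 2 and 0, beside 17.4% of all genes. The Argonaute partner gene Tnrc6b came nearest, at 266, 255 and 211 CPM in KD4 and 174, 205 and 191 CPM in KD6 (adjusted p = 0.0535), and Tnrc6a went the other way (log2 difference 0.24, adjusted p = 0.0722).

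Stress response genes gave 2 lower of 28, beside 2.39% of all genes, and 0 to 3 members passed over the settings. Atf4, the transcription factor at the centre of the integrated stress response, measured 307, 357 and 416 CPM in KD4 and 267, 236 and 232 CPM in KD6, 1.47-fold lower (log2 difference -0.55, adjusted p = 0.0128). Its adjusted p was 0.0601 without KD6 replicate 2 and 0.0532 without KD6 replicate 3. Atf3 was 1.84-fold lower (adjusted p = 0.0288), up to 0.101 with any of 4 libraries left out. The group's median was -0.051.

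Several of these genes lie close together, and the far part of chromosome 15 stood out when genes were ordered by position. With gene starts from the NCBIM37 annotation, 11932 genes could be placed and 213 bins of 10 Mb held at least 20 genes. On chromosome 15 the bins from 80, 90 and 100 Mb had medians of -0.179 (88 genes), -0.194 (65 genes) and -0.135 (44 genes). They were 3 of the 4 lowest bins. The fourth, on chromosome 13 from 20 Mb (-0.178, 66 genes), holds a histone cluster. The other bins lay between -0.101 and 0.089.

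From 80 Mb of chromosome 15 onward, 197 genes had a median log2 difference of -0.174, and 169 of them (85.8%) had a lower mean in KD6, against 50.2% of all placed genes. The 252 genes before 80 Mb had a median of -0.019. Relative to the shScr mean, the 197 genes had medians of 0.15, 0.155 and 0.175 in the KD4 libraries and 0.01, -0.008 and -0.089 in the KD6 libraries. The KD4 libraries were thus all above both other lines. For all genes outside the region, the KD4 medians were -0.003, 0.03 and 0.006. The region and its boundary were chosen after the values were seen and no test was made. Copy number was not measured, and its part in the difference was not tested.

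In that region 21 of the 197 genes were lower and 4 higher in KD6, beside 2.39% lower and 2.52% higher among all genes. Lrrk2, a large kinase that acts on Rab GTPases, measured 35.2, 44.2 and 55.7 CPM in KD4 and 18.5, 18.6 and 16.5 CPM in KD6, 2.52-fold lower (log2 difference -1.26, SE 0.137, adjusted p = 0.00085). Atf4, Arid2 and the retinoic acid receptor gene Rarg lie there too. Rarg was 1.30-fold lower and the only 1 of 6 retinoic acid genes to pass (adjusted p = 0.0413, up to 0.136 with any of 7 libraries left out). Smarcd1 starts at 99532718 of chromosome 15 in NCBIM37 and was 1 of the 4 genes higher in KD6. The others were Slc4a8, Nr4a1 and Fbln1, named after their values were seen, at 1.93-fold, 1.77-fold and 1.68-fold (adjusted p = 0.00292, 0.00705 and 0.022).

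**Figure D4:**
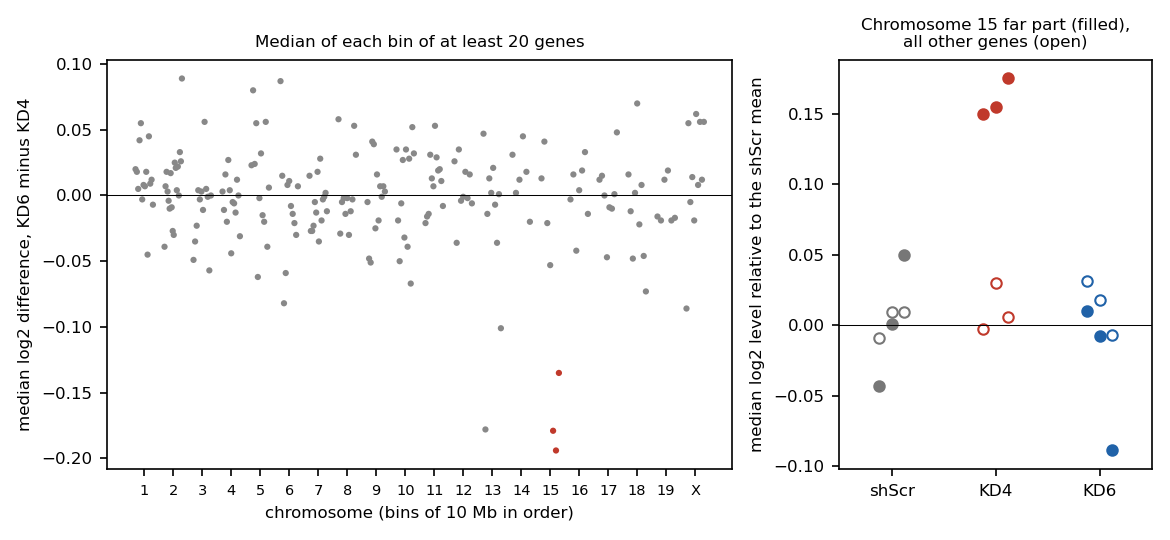
Left, the median log2 difference, KD6 minus KD4 (y axis), of each of 213 bins of 10 Mb by chromosome (x axis), with chromosome 15 from 80 Mb onward in red. Right, the median log2 level relative to the shScr mean (y axis) of each library for the 197 genes of that region (filled) and all other placed genes (open), with the KD4 libraries at 0.15 to 0.175.

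The histone cluster behaved differently by library. Its 40 histone genes on chromosome 13 had a median of -0.22 between the lines, and the 26 other genes of the bin -0.019. Relative to shScr the histone medians were 0.393, 0.103 and 0.391 in KD4 and 0.425, -0.042 and -0.201 in KD6. KD6 replicate 1 was therefore as high as KD4, and the lines overlapped. Of the 19 histone genes in the list, 1 passed, a share near the 4.91% of all genes. That gene, H1f1, was 1.64-fold lower (adjusted p = 0.0305, up to 0.108 with any of 6 libraries left out).

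For the 671 genes that differed, the scrambled line was used as a reference level. Its mean lay nearer to KD6 for 475 genes and nearer to KD4 for 196. It was between both hairpin lines for 426, beyond KD6 for 194 and beyond KD4 for 51. On a scale from the KD4 mean (0) to the KD6 mean (1), the median position of shScr was 0.75. Genes higher in KD6 (0.743) and lower in KD6 (0.767) gave similar positions. The shScr libraries were in the fit that chose these genes, through the spread only.

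**Figure D5:**
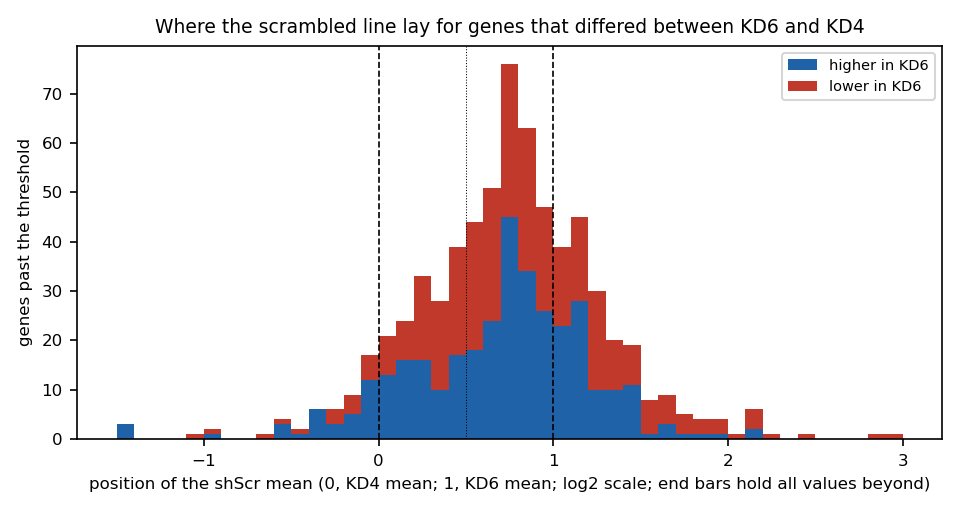
Number of genes (y axis) by the position of the shScr mean on a log2 scale (x axis) on which the KD4 mean is 0 and the KD6 mean is 1, for the 344 genes higher and 327 lower in KD6. The peak lies below 1 and the median is 0.75, so shScr was closer to KD6 for most genes.

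At the level of transcripts, 139 of 30220 (0.46%) passed, 94 higher and 45 lower in KD6. By the fitted log2 difference, 113 of them exceeded 1.5-fold. A second Otud4 transcript passed beside the first. The first (ENSMUST00000173286) measured 62.8, 54.5 and 52.3 CPM in KD4 and 127, 150 and 157 CPM in KD6, the other (ENSMUST00000173078) 41.8, 53.9 and 61.4 CPM against 131, 117 and 120 CPM (adjusted p = 0.0041 and 0.00784). Tgoln1, a trans-Golgi membrane protein, had a transcript at 123, 133 and 146 CPM in KD4 and 270, 281 and 280 CPM in KD6 (adjusted p = 0.0041). All of these separated the lines, as did all 139 passing transcripts.

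Transcripts of Cpeb4, a regulator of poly(A) tails in the cytoplasm, and of Cpne1, a calcium-dependent membrane-binding protein, were 2.16-fold and 2.91-fold higher in KD6 (adjusted p = 0.0041 and 0.00481). Serpine2 and Emp2 transcripts followed their genes, at 2.16-fold and 2.44-fold (adjusted p = 0.00453 for both). The 139 transcripts belonged to 135 genes, of which 121 had passed as genes.

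The 14 genes with a passing transcript but no passing gene value were named after their values were seen. A Tpm2 transcript, encoding an actin-binding tropomyosin, measured 24.4, 23.7 and 23.6 CPM in KD4 and 12.8, 12.4 and 14.3 CPM in KD6 (log2 difference -0.81, adjusted p = 0.0273). A Lmo7 transcript was 2.31-fold lower in KD6 (adjusted p = 0.0134). Leaving out any of the 6 KD4 and KD6 libraries lowered the number of transcripts that passed, to 11 without KD6 replicate 2. Without KD4 replicates 1, 2 and 3 there were 49, 35 and 66, and without KD6 replicates 1 and 3 there were 49 and 37.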

How the data were processed

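Values were CPM that the authors calculated from reads and deposited as a gene table and a transcript table. The labels name STAR 2.7.8a and build mm39, whereas the study's methods name another aligner, build and annotation, so that path is not settled. No listed gene had a geometric mean under 1.00 CPM, and no whole-read steps were found. A further 15 columns of per-sample values match no sample label and were not used. RefSeq and Ensembl names matched 87.3% of genes.

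Values were taken as log2(CPM + 1) and fitted by limma (version 3.58.1, R 4.3.3) as KD4, KD6 and shScr with 1 spread that followed the mean level, and p-values were adjusted by Benjamini-Hochberg over all genes or transcripts. Folds are ratios of mean CPM, but the counts of genes or transcripts over 1.5-fold or 2-fold used the fitted log2 difference. Fitted log2 differences understate the folds of low genes. On simulated data the gene fit recovered 81% of 1.5-fold and 97% of 2-fold changes, with 6.3% false calls. The transcript fit recovered 39% and 80%, with 5.6% false calls. Changes were simulated only in genes and transcripts above a set mean level, so recovery at lower levels was not measured. Named genes were Smarcd1, the 12 largest in each direction (mean log2 level at least 2, lines separate, predicted genes left out), up to 4 per list and 6 transcripts. Some genes that this rule names are not reported here. The comparison and the gene lists were chosen with earlier results of these data known. Figures used matplotlib 3.10.9.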

Additional observations from a re-analysis of the deposited data

How the results depend on the processing

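Of 80 named genes that passed, 49 passed under every setting that kept them and 0 changed direction. The minimum of 5 CPM left out some of these genes. The number of passing genes, 671, was 440 with KD4 and KD6 alone in the fit, and 298 to 611 when 1 of 9 libraries was left out. Transcripts, 139 in the full fit, were 13 with KD4 and KD6 alone and 11 to 66 with 1 of the 6 KD4 and KD6 libraries left out (no transcript fit without a shScr library was run); fewer libraries entered these fits. Replicate numbers did not pair the libraries, as same-number deviations of KD4 and KD6 correlated at -0.305 to -0.053 over 3 pairs. Across KD4, KD6 and shScr, the 18 pairs of different number ran from -0.332 to 0.422. A grouping of libraries other than by number was not tested. With the number as a block, 349 genes and 7 transcripts passed. List medians moved by more than the spread of the KD6 libraries in the following cases, and the cause was not tested. With a minimum of 5 CPM, NF-kB became -0.406 and Notch and Wnt 0.026. With quantile normalization, splicing became -0.008, mitosis -0.003 and mitochondrially encoded genes -0.091. With 1 library left out, the medians ran from -0.02 to 0.014 for splicing, -0.041 to -0.004 for CCR4-NOT, -0.296 to -0.219 for NF-kB, -0.085 to 0.0 for stress response, -0.054 to 0.17 for cholesterol synthesis, -0.114 to 0.037 for mitochondrially encoded genes, -0.145 to -0.063 for matrix, 0.032 to 0.166 for proteases, -0.146 to -0.058 for actin, -0.114 to -0.056 for junctions, -0.141 to 0.022 for Notch and Wnt, and -0.078 to 0.021 for immediate early genes. The chromosome 15 median, a result added after seeing the data, stayed between -0.201 and -0.157 in all 16 alternatives. Transcript share was planned and is not reported, because 44.9% of its calls were false on simulated data. Depth is unknown, so limits of detection could not be given. With 3 libraries a line and 1 line per hairpin, p-values cover the spread between passages only.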
